A study of Mus musculus with 9 samples.

Results

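The 43 genes described here belong to the amino acid stress response driven by Atf4, a transcription factor of the basic leucine zipper family. They were chosen by symbol, from knowledge of the pathway and with earlier results of these data known, out of 55418 symbols in a table of raw read counts. Cells sense a shortage of amino acids, misfolded proteins or other stress through kinases that phosphorylate the translation initiation factor eIF2. Bulk protein synthesis then slows while Atf4 messenger RNA is translated more, so Atf4 protein can increase with little change of its transcript. Atf4, often with a partner of the C/EBP family, then switches on genes for amino acid import, for the synthesis of serine, glycine and asparagine, for the charging of transfer RNAs and for feedback on the pathway itself. In tumour cells the same program is known for supplying amino acids and folate-bound carbon units to growing cells.

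The measurements were bulk RNA sequencing of 66cl4 cells, a mouse mammary carcinoma line labelled as triple-negative, which carried no drug treatment other than puromycin. The 3 groups, with 3 libraries each, carried the hairpin shEya3_KD1 against Eya3, the hairpin shEya3_KD2 against Eya3, or the scrambled hairpin SCR. Eya3 encodes a transcriptional co-activator with phosphatase activity, and all 9 cultures, SCR included, had been transduced with a hairpin vector and kept under puromycin. All grew in high-glucose medium with calf serum, added glutamine and added non-essential amino acids, and no group was starved of amino acids or given a stress agent, as far as the labels say. The titles call the libraries biological replicates but do not say whether the hairpins were introduced more than once, so p-values measure the spread between these cultures. Each hairpin was compared with the same 3 SCR libraries, so the 2 comparisons with SCR are not independent of each other.

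Library totals ranged from 27758862 to 52691960 counts. Levels are given as CPM (read counts scaled to the size of the library) after TMM scaling, a correction for library composition. Eya3, at chr4:132638987-132724765 of mm10, had 24.9, 21.5 and 22.9 CPM in shEya3_KD1, 38.7, 39.8 and 34.1 CPM in shEya3_KD2, and 68.1, 79.0 and 71.7 CPM in SCR. Its level was 31.7% of the SCR mean in shEya3_KD1 and 51.5% in shEya3_KD2, so the hairpin with the smaller loss of Eya3 transcript was shEya3_KD2. Of 6 markers of mammary carcinoma epithelium, Krt8 was abundant, at 1221 to 1370 CPM in shEya3_KD1, 752 to 853 CPM in shEya3_KD2 and 656 to 696 CPM in SCR. Krt14 averaged 0.561 ± 0.163 CPM in shEya3_KD1, 11.8 ± 1.93 CPM in shEya3_KD2 and 1.32 ± 0.497 CPM in SCR (SD, n = 3 each), so it was lowest in shEya3_KD1 and highest in shEya3_KD2. Krt18 had 38, 40 and 34 counts in shEya3_KD1, 130, 85 and 93 in shEya3_KD2, and 1, 2 and 1 in SCR, and Krt5 had 20, 25 and 15 counts in shEya3_KD1, 2, 1 and 1 in shEya3_KD2, and 0, 2 and 1 in SCR. Epcam had no count in any library, and Cdh1 stayed at or below 10 counts. Summed fibroblast markers, of which 4 of 7 were tested, came to 53.7 to 58.7 CPM in shEya3_KD1, 30.7 to 44.8 CPM in shEya3_KD2 and 28.8 to 35.8 CPM in SCR. Pdgfra made up most of that sum, and with shEya3_KD1 the members went both ways, with log2 fold changes of 0.44 for Pdgfra, 4.31 for Pdgfrb, 5.70 for Col1a2 and -1.48 for Col1a1. Summed macrophage markers, of which 3 of 8 were tested and C1qa and C1qc were at 0 in every library, came to 3.74 to 5.07 CPM in shEya3_KD1, 11.8 to 13.4 CPM in shEya3_KD2 and 10.2 to 10.7 CPM in SCR, most of it Cd68. The tested ones went different ways. With shEya3_KD1 and shEya3_KD2 the log2 fold changes were -1.46 and 0.32 for Cd68, -1.62 and -3.85 for Ptprc, and 3.15 and 3.58 for C1qb. Ptprc and C1qb were low, with 90 and 4 counts summed over the SCR libraries. Summed lymphocyte markers (1 of 5 tested) reached at most 1.19 CPM and summed endothelial markers (2 of 5 tested) at most 4.11 CPM in any library. Of the endothelial markers, Cdh5 had 12, 10 and 9 counts in shEya3_KD1, 93, 59 and 101 in shEya3_KD2, and 174, 191 and 165 in SCR, while Emcn had 68, 115 and 81 counts in shEya3_KD1, 0 in every shEya3_KD2 library, and 1, 1 and 0 in SCR. These markers move with the groups, and their part in the results on the Atf4 genes was not tested.

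Promoter windows in RefSeq (build GRCm38.p6, the build of mm10, 250 bases before to 50 after the start of a gene) were matched by symbol for 34 of the 43 genes, Mars under its newer symbol Mars1. They were searched on both strands for TGATGNAA, the shared core of the composite elements to which C/EBP and ATF factors bind. The core was found in 12 of the 34 genes (35.3%), against 1219 of the 27025 genes with a window (4.51%). Counted by windows, it was in 12 of 40 for these genes (30%) and in 1303 of all 32817 (3.97%). The 12 were Nupr1, Trib3, Chac1, Vldlr, Slc1a4, Asns, Pck2, Aars, Gars, Iars, Tars and Yars. The 6 windows below show where the core lies in a feedback gene, a glutathione enzyme, the asparagine synthetase gene and 3 tRNA synthetase genes. Each reads in the direction of transcription, 5′ to 3′, and capitals mark the core on either strand.

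Asns chr6:7693160-7693459 (minus strand): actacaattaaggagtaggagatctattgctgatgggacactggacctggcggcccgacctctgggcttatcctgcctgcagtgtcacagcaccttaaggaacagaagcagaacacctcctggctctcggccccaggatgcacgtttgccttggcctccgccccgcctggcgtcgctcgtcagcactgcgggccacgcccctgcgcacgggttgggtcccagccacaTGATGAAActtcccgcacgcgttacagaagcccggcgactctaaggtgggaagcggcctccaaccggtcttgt
Trib3 chr2:152344011-152344310 (minus strand): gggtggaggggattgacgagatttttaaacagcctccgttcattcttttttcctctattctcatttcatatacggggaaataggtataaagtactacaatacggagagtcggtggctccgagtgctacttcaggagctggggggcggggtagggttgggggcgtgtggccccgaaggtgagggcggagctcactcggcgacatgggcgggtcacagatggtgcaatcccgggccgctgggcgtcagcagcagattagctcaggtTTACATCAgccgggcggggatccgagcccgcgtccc
Chac1 chr2:119350992-119351291 (plus strand): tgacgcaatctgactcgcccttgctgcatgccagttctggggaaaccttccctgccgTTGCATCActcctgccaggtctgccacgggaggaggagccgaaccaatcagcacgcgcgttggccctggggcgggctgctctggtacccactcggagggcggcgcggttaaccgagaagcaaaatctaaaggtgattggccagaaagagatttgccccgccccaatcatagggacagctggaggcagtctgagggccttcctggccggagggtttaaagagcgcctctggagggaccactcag
Aars chr8:111033592-111033891 (plus strand): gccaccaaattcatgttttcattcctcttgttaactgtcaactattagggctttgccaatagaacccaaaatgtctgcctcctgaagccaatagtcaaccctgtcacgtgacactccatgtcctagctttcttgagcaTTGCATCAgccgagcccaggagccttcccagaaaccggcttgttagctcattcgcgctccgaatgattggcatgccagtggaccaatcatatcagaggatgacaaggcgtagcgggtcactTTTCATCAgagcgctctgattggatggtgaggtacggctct
Gars chr6:55037751-55038050 (plus strand): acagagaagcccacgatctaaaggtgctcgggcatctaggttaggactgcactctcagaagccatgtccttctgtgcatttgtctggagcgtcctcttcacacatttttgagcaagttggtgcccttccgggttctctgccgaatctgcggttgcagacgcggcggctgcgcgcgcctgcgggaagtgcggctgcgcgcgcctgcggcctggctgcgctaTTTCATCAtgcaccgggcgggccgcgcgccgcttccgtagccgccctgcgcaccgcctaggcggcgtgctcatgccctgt
Iars chr13:49681880-49682179 (plus strand): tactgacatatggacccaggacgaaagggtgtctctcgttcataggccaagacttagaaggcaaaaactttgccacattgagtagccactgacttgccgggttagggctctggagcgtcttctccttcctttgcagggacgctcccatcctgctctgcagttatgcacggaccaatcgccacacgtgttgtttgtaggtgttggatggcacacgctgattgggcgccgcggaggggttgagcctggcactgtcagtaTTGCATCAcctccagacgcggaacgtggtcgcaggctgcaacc

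In the Asns window the core reads TGATGAAA on the coding strand and begins 23 bases before the start. In the other 5 windows it lies on the opposite strand, as TTACATCA in Trib3, TTGCATCA in Chac1 and Iars, TTTCATCA in Gars, and both TTGCATCA and TTTCATCA in Aars. A match of letters is a description and not a bound site.

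Across the 9 libraries the Atf4 genes were mostly higher with both hairpins, more so with shEya3_KD2 than with shEya3_KD1. The median of the genes' log2 levels relative to the SCR mean was 0.22, 0.31 and 0.23 in the 3 shEya3_KD1 libraries, 0.53, 0.49 and 0.42 in the 3 shEya3_KD2 libraries, and 0.00, -0.05 and 0.05 in the 3 SCR libraries. The 3 groups did not overlap. Of the 43 genes 42 passed the filter on low counts. Cbs, the cystathionine beta-synthase gene, did not, with 8, 5 and 4 counts in shEya3_KD1, 1, 3 and 1 in shEya3_KD2, and 3, 1 and 1 in SCR. Every other gene averaged at least 5 CPM in each group.

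Against SCR, 25 of the 42 genes rose and 8 fell with shEya3_KD1 in edgeR's quasi-likelihood test (Benjamini-Hochberg, p under 0.05 after adjustment), fitted over all 15914 genes tested. Of all genes tested 50.3% were called in that comparison, 24.1% upwards and 26.2% downwards. The median log2 fold change of the Atf4 genes was 0.25, beside 0.01 over all genes. With shEya3_KD2, 38 rose and 0 fell, where 45.3% of all genes were called, 23.0% upwards and 22.3% downwards, and the median was 0.47, beside 0.00 over all genes. The count of 0 was also 0 at an unadjusted p under 0.05 and with DESeq2 and limma-voom. Between the hairpins, 29 were higher in shEya3_KD2 than in shEya3_KD1 and 3 were lower, where 49.6% of all genes were called, 27% upwards and 22.5% downwards, with a median of 0.36, beside 0.00 over all genes. By libraries, 27 of the 42 lay wholly above SCR and 8 wholly below it in shEya3_KD1, and in shEya3_KD2 36 lay wholly above SCR and 6 overlapped it. Between the hairpins, 30 lay wholly higher in shEya3_KD2 and 2 wholly lower. How many of all genes lay apart in this way was not counted, so these separations only describe the set. The counts of calls by role given below stand beside the shares of all genes called in this paragraph. In bulk RNA from a culture, a change in the share of cells that express a gene and a change of its level per cell cannot be told apart.

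**Figure D1:**
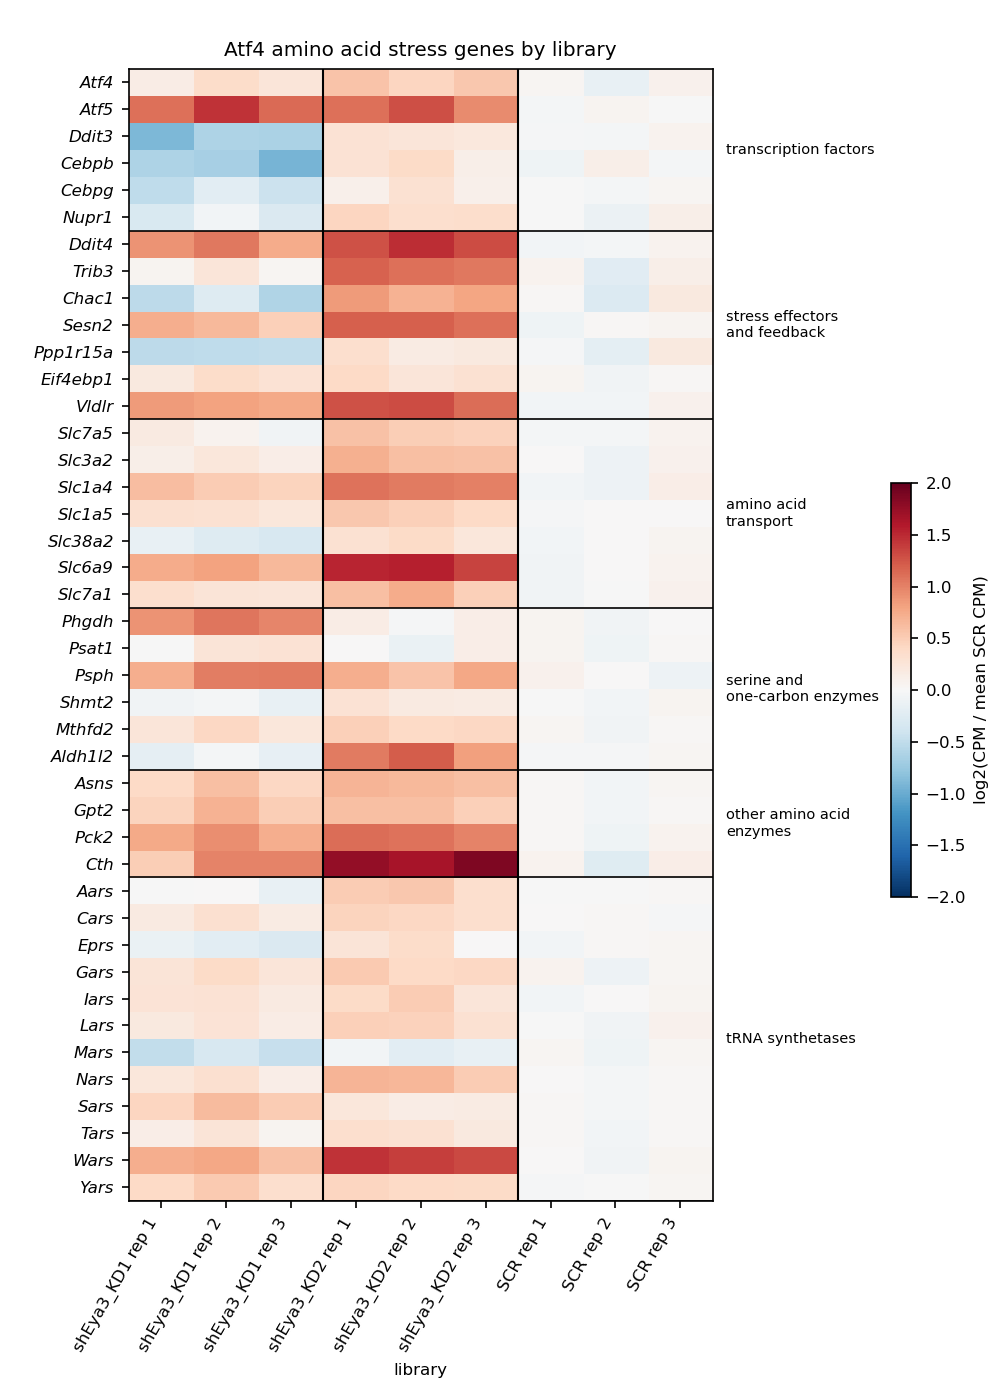
Level of each of the 42 tested Atf4 genes (rows, by role) in each of the 9 libraries (columns), as log2 of its CPM over the mean CPM of the 3 SCR libraries, red for higher and blue for lower. The shEya3_KD2 columns are red in nearly every row, while the shEya3_KD1 columns are most clearly blue for Ddit3, Cebpb, Cebpg, Chac1, Ppp1r15a and Mars.

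The transcription factors went both ways with shEya3_KD1. With shEya3_KD1, 2 of 6 rose (Atf4 and Atf5) and 3 fell (Ddit3, Cebpb and Cebpg), with a median log2 fold change of -0.29. With shEya3_KD2, 5 of 6 rose, with a median of 0.32. Atf4, at chr15:80255184-80257541, had 525, 611 and 558 CPM in shEya3_KD1, 699, 638 and 682 CPM in shEya3_KD2, and 486, 428 and 501 CPM in SCR. Libraries of both hairpins lay above every SCR library, and those of shEya3_KD2 above those of shEya3_KD1. By edgeR's quasi-likelihood test the log2 fold change was 0.26 ± 0.08 with shEya3_KD1 (adjusted p = 0.0126), 0.51 ± 0.08 with shEya3_KD2 (adjusted p = 0.000103) and 0.25 ± 0.08 between the hairpins (adjusted p = 0.0149). The shEya3_KD1 call was lost without shEya3_KD1 replicate 2, or SCR replicate 2 (0.18 to 0.19), and the call between the hairpins without shEya3_KD1 replicate 1, or shEya3_KD2 replicate 1 (0.20 to 0.24). These values are transcript levels, and Atf4 protein was not measured.

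Atf5, a related factor that is also translated under eIF2 phosphorylation, had 165, 210 and 169 CPM in shEya3_KD1, 166, 188 and 149 CPM in shEya3_KD2, and 74.8, 79.8 and 76.4 CPM in SCR. All 6 hairpin libraries stood well above the SCR libraries, and the hairpins overlapped each other. It rose by 1.24 ± 0.10 with shEya3_KD1 and by 1.12 ± 0.10 with shEya3_KD2 on the log2 scale (edgeR adjusted p = 1.5e-07 and 9.51e-07), and between the hairpins the difference was -0.11 ± 0.10 (adjusted p = 0.363). On the opposite strand its exons overlap those of Nup62 and Il4i1 by 82 bases, 4.11% of its exon length, and the strand setting of the counting is not given in the sources used here.

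Ddit3, the gene of the pro-apoptotic factor CHOP, had 5.89, 7.11 and 7.06 CPM in shEya3_KD1, 13.3, 12.9 and 12.6 CPM in shEya3_KD2, and 10.7, 10.7 and 11.4 CPM in SCR. The shEya3_KD1 libraries were the low ones and the shEya3_KD2 libraries the high ones, with SCR between them. It fell by 0.71 ± 0.09 on the log2 scale with shEya3_KD1 (edgeR adjusted p = 1.17e-05) and was 0.95 ± 0.09 higher in shEya3_KD2 than in shEya3_KD1 (adjusted p = 6.45e-07). The rise with shEya3_KD2 over SCR was 0.25 ± 0.09 (adjusted p = 0.0314) and was lost without shEya3_KD2 replicate 1, or SCR replicate 1, 2 or 3 (0.22 to 0.28). Ddit3 and Mars, at chr10:127290774-127296288 and chr10:127296221-127311786, lie tail to tail and share 68 exon bases on opposite strands, 3.97% of the Ddit3 exons, and 2 annotated genes carry the symbol Ddit3.

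Cebpb, a leucine zipper partner of Atf4, had 88.9, 86.0 and 71.7 CPM in shEya3_KD1, 166, 177 and 148 CPM in shEya3_KD2, and 128, 148 and 133 CPM in SCR. Its levels in shEya3_KD1 were below all other libraries. It fell by 0.73 ± 0.09 with shEya3_KD1 (edgeR adjusted p = 1e-05) and was 0.99 ± 0.09 higher in shEya3_KD2 than in shEya3_KD1 on the log2 scale (adjusted p = 5.44e-07). The shEya3_KD2 and SCR libraries overlapped, and the rise of 0.26 ± 0.09 (adjusted p = 0.0293) was lost without shEya3_KD2 replicate 1 or 2, or SCR replicate 1 or 3 (0.20 to 0.25). Exons of Tmem189 cover 312 bases of Cebpb on the opposite strand, 20.7% of its exon length. The Tmem189 log2 fold changes were -0.10 with shEya3_KD1 and -0.06 with shEya3_KD2, neither called. Cebpg, a further partner, had 54.4, 67.1 and 57.5 CPM in shEya3_KD1, 83.2, 95.4 and 83.3 CPM in shEya3_KD2, and 77.2, 75.5 and 79.6 CPM in SCR. It fell by 0.38 ± 0.08 with shEya3_KD1 (adjusted p = 0.00135) and did not pass the test with shEya3_KD2 (0.17 ± 0.08). Nupr1, a small stress-induced nuclear protein, had 12.7, 15.2 and 12.9 CPM in shEya3_KD1, 21.2, 19.9 and 20.1 CPM in shEya3_KD2, and 15.7, 14.5 and 17.2 CPM in SCR. It rose by 0.37 ± 0.09 with shEya3_KD2 (adjusted p = 0.00319), while the value of -0.21 ± 0.09 with shEya3_KD1 did not pass (adjusted p = 0.067). That fall passed without shEya3_KD1 replicate 2 (-0.31), without SCR replicate 2 (-0.28) and with all libraries thinned to the shallowest (-0.28, adjusted p = 0.0196).

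**Figure D2:**
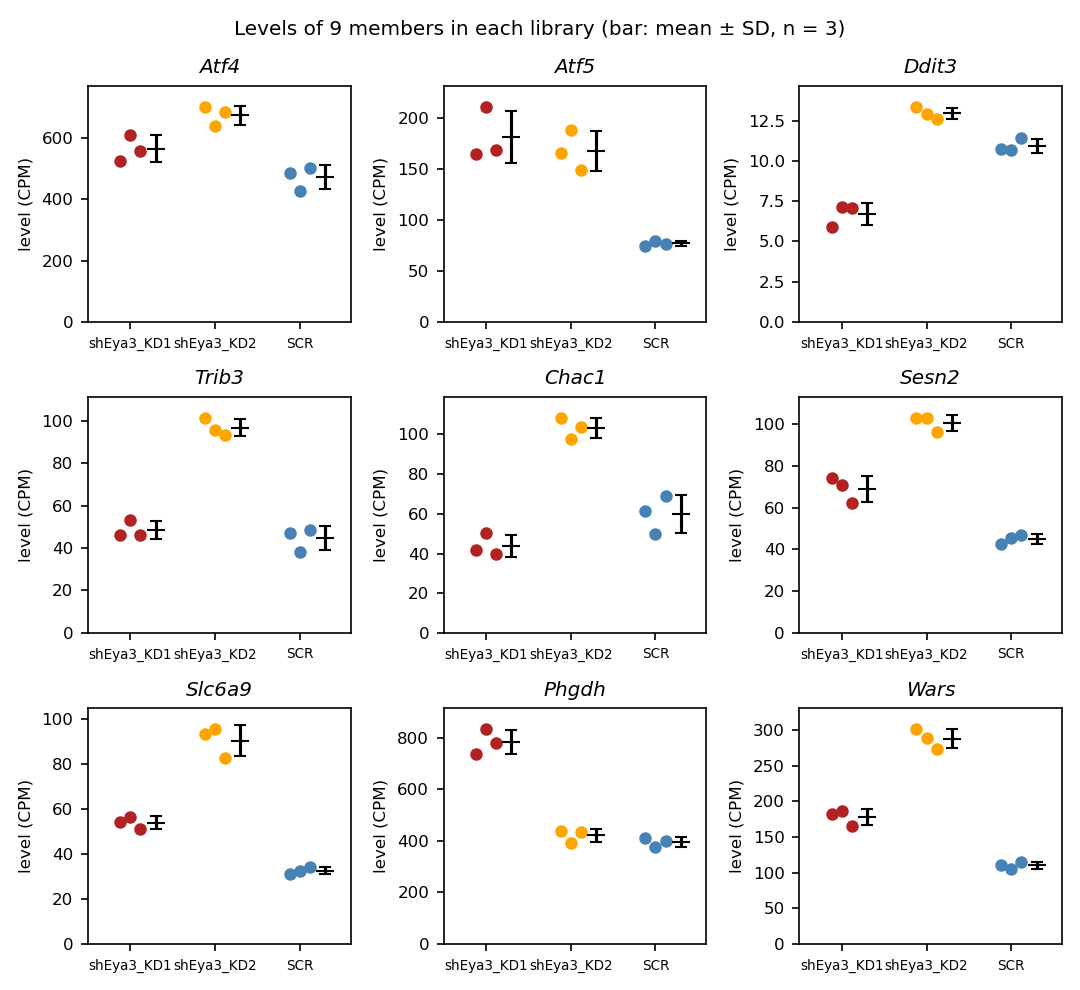
Level in CPM (vertical axis, from 0) of 9 Atf4 genes in the 3 libraries of each group, with the mean and SD (n = 3) beside the points. Atf5, Sesn2, Slc6a9 and Wars lie above SCR in all 6 hairpin libraries, Ddit3 and Chac1 are lowest in shEya3_KD1 and highest in shEya3_KD2 by group mean, and Phgdh is highest in shEya3_KD1.

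Among the stress effectors and feedback genes, all 7 rose with shEya3_KD2 (median log2 fold change 1.11), while 4 rose and 2 fell with shEya3_KD1 (median 0.29). Ddit4 (Redd1), an inhibitor of the growth kinase complex mTORC1, had 58.1, 64.9 and 52.2 CPM in shEya3_KD1, 75.5, 87.3 and 77.3 CPM in shEya3_KD2, and 30.2, 30.6 and 33.0 CPM in SCR. The 3 groups did not overlap. It rose by 0.90 ± 0.09 with shEya3_KD1 (edgeR adjusted p = 4.29e-07) and by 1.36 ± 0.09 with shEya3_KD2 (adjusted p = 1.63e-08) on the log2 scale. Sesn2, a leucine-binding sestrin that also restrains mTORC1, had 74.3, 70.7 and 62.3 CPM in shEya3_KD1, 103, 103 and 96.3 CPM in shEya3_KD2, and 42.6, 45.5 and 46.9 CPM in SCR. It rose by 0.62 ± 0.07 with shEya3_KD1 (adjusted p = 5.25e-06) and was a further 0.54 ± 0.07 higher in shEya3_KD2 (adjusted p = 2.29e-05), again with no overlap between groups. Vldlr, a lipoprotein receptor that Atf4 induces, had 49.0, 47.3 and 45.8 CPM in shEya3_KD1, 65.4, 67.0 and 58.3 CPM in shEya3_KD2, and 26.2, 26.1 and 28.8 CPM in SCR. Its rise was 0.81 ± 0.07 with shEya3_KD1 and 1.23 ± 0.07 with shEya3_KD2 (adjusted p = 2.25e-07 and 7.53e-09).

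Trib3, a pseudokinase that binds Atf4 and damps its activity, had 46.2, 53.1 and 46.1 CPM in shEya3_KD1, 101, 95.6 and 93.2 CPM in shEya3_KD2, and 47.2, 38.3 and 48.7 CPM in SCR. The shEya3_KD2 libraries lay far above the other 6, while shEya3_KD1 and SCR overlapped. Trib3, at chr2:152337422-152344032, rose by 1.11 ± 0.09 with shEya3_KD2 over SCR (edgeR adjusted p = 1.96e-07) and by 0.99 ± 0.09 over shEya3_KD1 (adjusted p = 3.31e-07), and its value of 0.12 ± 0.09 with shEya3_KD1 did not pass (adjusted p = 0.294) and ranged from 0.0048 to 0.17 over the alternatives.

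Chac1, an enzyme that breaks down glutathione, had 41.8, 50.2 and 39.8 CPM in shEya3_KD1, 108, 97.7 and 104 CPM in shEya3_KD2, and 61.4, 50.0 and 68.9 CPM in SCR. It averaged 43.9 ± 5.53 CPM in shEya3_KD1, 103 ± 5.20 CPM in shEya3_KD2 and 60.1 ± 9.55 CPM in SCR (SD, n = 3 each). The fall with shEya3_KD1 was -0.45 ± 0.11 on the log2 scale (edgeR adjusted p = 0.00451), although the highest shEya3_KD1 library lay just above the lowest SCR library. Chac1 rose by 0.78 ± 0.11 with shEya3_KD2 (adjusted p = 9.28e-05), and its difference between the hairpins, 1.23 ± 0.11 (adjusted p = 1.19e-06), exceeded that of every other gene of the 42.

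Ppp1r15a (GADD34), which directs a phosphatase to eIF2 and so ends the response, had 49.0, 49.7 and 49.8 CPM in shEya3_KD1, 89.0, 79.2 and 80.3 CPM in shEya3_KD2, and 69.1, 61.4 and 80.6 CPM in SCR. The 3 shEya3_KD1 libraries lay within 1 CPM of each other and below the rest. It fell by 0.51 ± 0.09 with shEya3_KD1 (edgeR adjusted p = 0.000184) and was 0.74 ± 0.09 higher in shEya3_KD2 than in shEya3_KD1 (adjusted p = 5.48e-06). Its rise of 0.24 ± 0.09 with shEya3_KD2 over SCR (adjusted p = 0.0367) rested on overlapping libraries and was lost without shEya3_KD1 replicate 2 or 3, or shEya3_KD2 replicate 1, or SCR replicate 1 or 2 (0.14 to 0.23). Without SCR replicate 2 its value was the lowest of these. Eif4ebp1, a repressor of cap-dependent translation, rose by 0.29 ± 0.07 with shEya3_KD1 and by 0.32 ± 0.07 with shEya3_KD2 (adjusted p = 0.00238 and 0.00159). It stood at 233 to 263 CPM in shEya3_KD1, 241 to 267 CPM in shEya3_KD2 and 193 to 211 CPM in SCR, so only the hairpins overlapped each other.

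**Figure D3:**
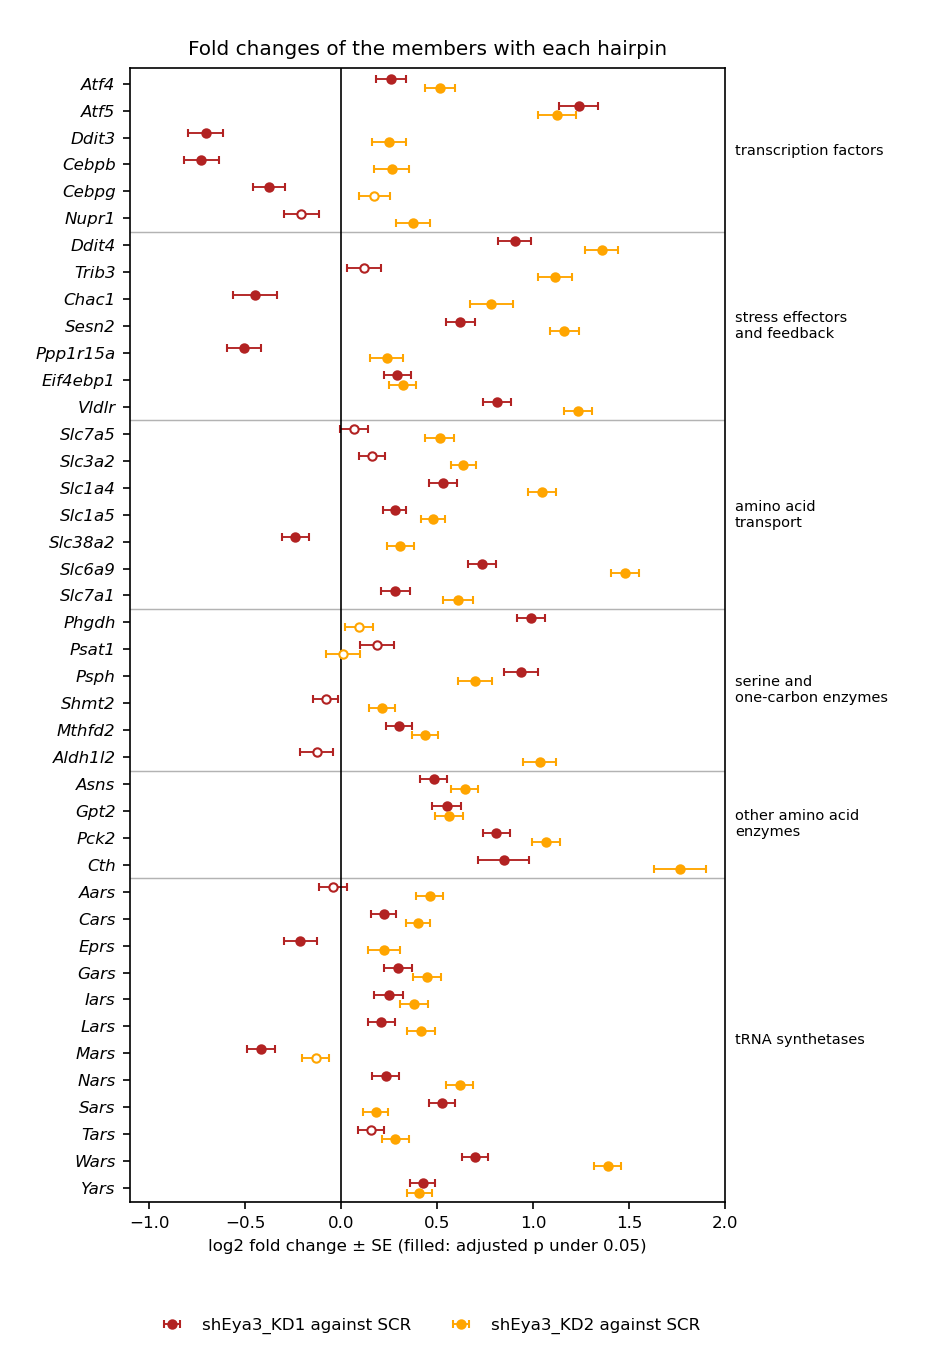
Log2 fold change against SCR (horizontal axis) with its standard error for the 42 tested Atf4 genes, grouped by role, with shEya3_KD1 in red and shEya3_KD2 in orange and filled points for an adjusted p under 0.05. The orange points lie to the right of the red ones for most genes, and Atf5, Phgdh, Psat1, Psph, Sars and Yars are placed the other way round.

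All 7 amino acid transporters rose with shEya3_KD2 (median log2 fold change 0.61), and all 7 were higher in shEya3_KD2 than in shEya3_KD1. With shEya3_KD1, 4 rose and 1 fell (median 0.28). Slc6a9, the glycine transporter GlyT1 at chr4:117834506-117875198, had 54.1, 56.5 and 51.0 CPM in shEya3_KD1, 93.1, 95.2 and 82.4 CPM in shEya3_KD2, and 30.9, 32.5 and 34.0 CPM in SCR. The groups did not overlap. It rose by 0.73 ± 0.07 with shEya3_KD1 (edgeR adjusted p = 8.28e-07) and by 1.48 ± 0.07 with shEya3_KD2 (adjusted p = 1.4e-09). Slc1a4 (ASCT1), an exchanger of alanine, serine and cysteine, had 62.9, 58.0 and 55.9 CPM in shEya3_KD1, 86.6, 84.0 and 82.3 CPM in shEya3_KD2, and 39.5, 38.3 and 44.8 CPM in SCR. It rose by 0.53 ± 0.07 and 1.04 ± 0.07 with shEya3_KD1 and shEya3_KD2 (adjusted p = 2.47e-05 and 4.89e-08).

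Slc7a5 and Slc3a2 encode the light and heavy chains of LAT1, which imports leucine and other large neutral amino acids. Slc7a5 had 279, 259 and 234 CPM in shEya3_KD1, 370, 345 and 337 CPM in shEya3_KD2, and 239, 240 and 259 CPM in SCR. Slc3a2 had 220, 235 and 221 CPM in shEya3_KD1, 329, 307 and 304 CPM in shEya3_KD2, and 202, 189 and 214 CPM in SCR. Both chains were highest in shEya3_KD2, with rises of 0.51 ± 0.07 for Slc7a5 and 0.64 ± 0.07 for Slc3a2 (edgeR adjusted p = 5.96e-05 and 3.22e-06). With shEya3_KD1 the values of 0.07 ± 0.07 and 0.16 ± 0.07 did not pass (adjusted p = 0.492 and 0.0621), that of Slc7a5 ranging from 0.0051 to 0.12 over the alternatives. For Slc3a2 the shEya3_KD1 libraries nevertheless lay above all SCR libraries, and it passed with DESeq2, with the filter at 5 CPM and with only those groups in the fit.

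Slc38a2 (SNAT2), an importer of small neutral amino acids that starvation induces, had 492, 454 and 437 CPM in shEya3_KD1, 672, 711 and 636 CPM in shEya3_KD2, and 523, 544 and 566 CPM in SCR. It fell by 0.24 ± 0.07 with shEya3_KD1 (edgeR adjusted p = 0.0105), a call lost without SCR replicate 3 (-0.22), and rose by 0.31 ± 0.07 with shEya3_KD2 (adjusted p = 0.00256). The difference between the hairpins was 0.55 ± 0.07 (adjusted p = 1.45e-05). Slc7a1 (CAT1), the importer of arginine and lysine, had 460, 432 and 430 CPM in shEya3_KD1, 549, 607 and 504 CPM in shEya3_KD2, and 344, 359 and 385 CPM in SCR. It rose by 0.28 ± 0.08 with shEya3_KD1 and 0.61 ± 0.08 with shEya3_KD2 (adjusted p = 0.00658 and 1.69e-05). Slc1a5 (ASCT2), a glutamine transporter, had 161, 160 and 151 CPM in shEya3_KD1, 189, 182 and 171 CPM in shEya3_KD2, and 128, 131 and 130 CPM in SCR. It rose by 0.28 ± 0.06 with shEya3_KD1 and 0.48 ± 0.06 with shEya3_KD2 (adjusted p = 0.00152 and 2.13e-05), and its difference of 0.20 ± 0.06 between the hairpins was lost without shEya3_KD2 replicate 1 (0.17).

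In the synthesis of serine, Phgdh was higher in shEya3_KD1 than in shEya3_KD2, the reverse of most genes of the set. Of the 6 serine and folate enzymes, 3 rose with shEya3_KD1 and 4 with shEya3_KD2, and between the hairpins 2 were higher and 2 lower in shEya3_KD2. Phgdh, the enzyme of the first step of serine synthesis from 3-phosphoglycerate, at chr3:98313170-98339990, had 739, 832 and 780 CPM in shEya3_KD1, 439, 391 and 434 CPM in shEya3_KD2, and 411, 377 and 398 CPM in SCR. It averaged 784 ± 46.9 CPM in shEya3_KD1, 421 ± 26.4 CPM in shEya3_KD2 and 395 ± 17.6 CPM in SCR (SD, n = 3 each), and the last 2 groups overlapped. It rose by 0.99 ± 0.07 with shEya3_KD1 (edgeR adjusted p = 2.62e-08), did not pass with shEya3_KD2 (0.09 ± 0.07, adjusted p = 0.329) and was -0.90 on the log2 scale in shEya3_KD2 over shEya3_KD1 (adjusted p = 1.03e-07).

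Psat1, the transaminase of the next step, had 628, 753 and 766 CPM in shEya3_KD1, 634, 571 and 692 CPM in shEya3_KD2, and 656, 592 and 637 CPM in SCR. Libraries of all 3 groups overlapped, and no comparison passed (edgeR adjusted p = 0.096 with shEya3_KD1, 0.943 with shEya3_KD2 and 0.113 between the hairpins). With shEya3_KD1 it passed as risen when low genes were not filtered (0.19, adjusted p = 0.0482), with only those groups in the fit (0.20, adjusted p = 0.0486) and without shEya3_KD1 replicate 1 (0.27, adjusted p = 0.016). Between the hairpins it passed as lower in shEya3_KD2 without shEya3_KD1 replicate 1 (-0.26) or shEya3_KD2 replicate 3 (-0.25). Psph, the phosphatase of the last step, had 54.6, 67.2 and 68.0 CPM in shEya3_KD1, 54.7, 49.3 and 56.2 CPM in shEya3_KD2, and 35.0, 33.2 and 30.9 CPM in SCR. It rose with both hairpins, by 0.94 ± 0.09 and 0.69 ± 0.09 with shEya3_KD1 and shEya3_KD2 (adjusted p = 4.23e-07 and 1.9e-05). The lower value in shEya3_KD2 than in shEya3_KD1, -0.24 ± 0.09, was lost without shEya3_KD1 replicate 2 or 3, or shEya3_KD2 replicate 1 or 2 (-0.25 to -0.18). The exons of Cct6a, on the opposite strand, cover 452 bases of Psph, and Cct6a changed by -0.39 with shEya3_KD2 (adjusted p = 0.00268).

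Aldh1l2, which oxidises formyl-tetrahydrofolate in mitochondria, had 70.2, 77.3 and 70.5 CPM in shEya3_KD1, 163, 184 and 140 CPM in shEya3_KD2, and 77.9, 78.3 and 81.9 CPM in SCR. It rose by 1.03 ± 0.09 with shEya3_KD2 (edgeR adjusted p = 2.71e-07) and by 1.16 ± 0.09 over shEya3_KD1 (adjusted p = 4.17e-08). With shEya3_KD1 its libraries lay below those of SCR, but the value of -0.13 ± 0.09 did not pass. The opposite-strand gene D10Wsu102e, which covers 1056 of its exon bases (14.1%), was lower with both hairpins (log2 fold changes -0.65 and -0.60). Mthfd2, a mitochondrial folate enzyme, had 245, 275 and 243 CPM in shEya3_KD1, 290, 274 and 277 CPM in shEya3_KD2, and 214, 197 and 210 CPM in SCR. It rose by 0.30 ± 0.07 with shEya3_KD1 and 0.44 ± 0.07 with shEya3_KD2 (adjusted p = 0.00184 and 0.000113). Shmt2, which makes glycine from serine in mitochondria, had 688, 701 and 647 CPM in shEya3_KD1, 876, 816 and 805 CPM in shEya3_KD2, and 717, 690 and 749 CPM in SCR. Its rise of 0.21 ± 0.07 with shEya3_KD2 (adjusted p = 0.0181) was lost without shEya3_KD2 replicate 1, or SCR replicate 1 or 2 (0.17 to 0.21).

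The other amino acid enzymes rose with both hairpins, 4 of the 4 tested in each comparison, with a median log2 fold change of 0.68 with shEya3_KD1 and 0.85 with shEya3_KD2. Asns, asparagine synthetase, at chr6:7675169-7693254, had 320, 370 and 325 CPM in shEya3_KD1, 389, 378 and 367 CPM in shEya3_KD2, and 247, 233 and 248 CPM in SCR. Every hairpin library exceeded every SCR library. It rose by 0.48 ± 0.07 with shEya3_KD1 (edgeR adjusted p = 3.6e-05) and by 0.64 ± 0.07 with shEya3_KD2 (adjusted p = 4.05e-06). Cth, the gamma-lyase that releases cysteine from cystathionine, at chr3:157894248-157925077, had 18.6, 26.3 and 26.2 CPM in shEya3_KD1, 44.4, 41.4 and 48.2 CPM in shEya3_KD2, and 13.9, 11.2 and 14.5 CPM in SCR. Its rise of 1.76 ± 0.13 with shEya3_KD2 (adjusted p = 5.23e-07) was the largest of the 42 genes in that comparison, against 0.84 ± 0.13 with shEya3_KD1 (adjusted p = 0.000177).

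Pck2, the mitochondrial phosphoenolpyruvate carboxykinase, had 246, 276 and 241 CPM in shEya3_KD1, 314, 309 and 291 CPM in shEya3_KD2, and 148, 136 and 152 CPM in SCR. It rose by 0.81 ± 0.07 and 1.07 ± 0.07 with shEya3_KD1 and shEya3_KD2 (edgeR adjusted p = 2.08e-07 and 2.96e-08). Gpt2, the mitochondrial alanine transaminase, had 97.3, 116 and 101 CPM in shEya3_KD1, 108, 109 and 100 CPM in shEya3_KD2, and 73.0, 68.9 and 72.9 CPM in SCR. Its rises, 0.55 ± 0.07 with shEya3_KD1 and 0.56 ± 0.07 with shEya3_KD2 (adjusted p = 1.6e-05 and 2.3e-05), were close in size, and the difference between the hairpins was 0.01 ± 0.07.

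The tRNA synthetases attach amino acids to their transfer RNAs. Of the 12 cytosolic synthetases of the set, 8 rose and 2 fell with shEya3_KD1 (median log2 fold change 0.22) and 11 rose with shEya3_KD2 (median 0.40). Wars, for tryptophan, at chr12:108860030-108894174, had 183, 187 and 165 CPM in shEya3_KD1, 301, 288 and 274 CPM in shEya3_KD2, and 110, 105 and 114 CPM in SCR. The groups were apart, and it moved the most of the 12 in both comparisons with SCR, by 0.70 ± 0.07 with shEya3_KD1 (edgeR adjusted p = 6.6e-07) and 1.39 ± 0.07 with shEya3_KD2 (adjusted p = 1.33e-09). As background, Wars is also an interferon-induced gene. Nars, for asparagine, had 522, 554 and 490 CPM in shEya3_KD1, 713, 704 and 632 CPM in shEya3_KD2, and 448, 435 and 452 CPM in SCR. It rose by 0.62 ± 0.07 with shEya3_KD2 (adjusted p = 6.96e-06), and its smaller rise with shEya3_KD1, 0.23 ± 0.07, was lost without shEya3_KD1 replicate 2, or SCR replicate 2 (0.18 to 0.20).

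Aars, for alanine, had 459, 467 and 417 CPM in shEya3_KD1, 656, 669 and 581 CPM in shEya3_KD2, and 457, 458 and 471 CPM in SCR. It rose by 0.46 ± 0.07 with shEya3_KD2 (edgeR adjusted p = 0.000122) and overlapped SCR with shEya3_KD1 (-0.05 ± 0.07, -0.084 to -0.0047 over the alternatives). Sars, for serine, had 535, 615 and 565 CPM in shEya3_KD1, 465, 440 and 445 CPM in shEya3_KD2, and 404, 388 and 403 CPM in SCR. Like Phgdh it was highest in shEya3_KD1, with a rise of 0.52 ± 0.07 (adjusted p = 1.14e-05) and a value of -0.34 in shEya3_KD2 over shEya3_KD1 (adjusted p = 0.00063). Its rise of 0.18 ± 0.07 with shEya3_KD2 was lost without shEya3_KD1 replicate 2, or shEya3_KD2 replicate 1 or 3, or SCR replicate 1, 2 or 3 (0.15 to 0.19).

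Mars, for methionine, had 251, 283 and 257 CPM in shEya3_KD1, 339, 305 and 320 CPM in shEya3_KD2, and 363, 332 and 363 CPM in SCR. It fell by 0.42 ± 0.07 with shEya3_KD1 (edgeR adjusted p = 0.000156) and was the synthetase of the 12 that did not pass with shEya3_KD2 (-0.13 ± 0.07, adjusted p = 0.14). Eprs, for glutamate and proline, had 495, 468 and 445 CPM in shEya3_KD1, 652, 699 and 550 CPM in shEya3_KD2, and 521, 551 and 559 CPM in SCR. Its fall of -0.21 ± 0.08 with shEya3_KD1 and its rise of 0.22 ± 0.08 with shEya3_KD2 (adjusted p = 0.0464 and 0.0443) were both small. The fall was lost without shEya3_KD1 replicate 2 or 3, or shEya3_KD2 replicate 1, or SCR replicate 1, 2 or 3 (-0.24 to -0.18). The rise was lost without shEya3_KD1 replicate 2 or 3, or shEya3_KD2 replicate 1 or 2, or SCR replicate 1, 2 or 3 (0.14 to 0.24), the lowest of these values without shEya3_KD2 replicate 2.

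Yars, for tyrosine, had 141, 153 and 134 CPM in shEya3_KD1, 143, 141 and 138 CPM in shEya3_KD2, and 104, 105 and 109 CPM in SCR, and its rises were 0.42 ± 0.06 with shEya3_KD1 and 0.41 ± 0.06 with shEya3_KD2 (edgeR adjusted p = 5.8e-05 and 0.000134). Gars, for glycine, had 478, 518 and 473 CPM in shEya3_KD1, 572, 526 and 532 CPM in shEya3_KD2, and 417, 370 and 410 CPM in SCR. It rose by 0.29 ± 0.07 with shEya3_KD1 and 0.45 ± 0.07 with shEya3_KD2 (adjusted p = 0.00272 and 0.000133). Cars, for cysteine, had 218, 239 and 214 CPM in shEya3_KD1, 260, 256 and 243 CPM in shEya3_KD2, and 192, 195 and 189 CPM in SCR. Iars, for isoleucine, had 359, 366 and 336 CPM in shEya3_KD1, 388, 424 and 352 CPM in shEya3_KD2, and 286, 299 and 309 CPM in SCR. Lars, for leucine, had 302, 316 and 291 CPM in shEya3_KD1, 366, 360 and 323 CPM in shEya3_KD2, and 260, 249 and 278 CPM in SCR. Cars, Iars and Lars rose by 0.22, 0.25 and 0.21 with shEya3_KD1 and by 0.40, 0.38 and 0.42 with shEya3_KD2. The shEya3_KD1 call of Cars was lost without shEya3_KD1 replicate 2, or SCR replicate 3 (0.16 to 0.20), that of Iars without shEya3_KD1 replicate 2, or SCR replicate 1 (0.21 to 0.22) and that of Lars without shEya3_KD1 replicate 2, or SCR replicate 1 or 2 (0.16 to 0.20). Between the hairpins, the higher level of Cars in shEya3_KD2 (0.18 ± 0.06) was lost without shEya3_KD1 replicate 1 or 3, or shEya3_KD2 replicate 1 or 2 (0.15 to 0.17), and that of Lars (0.21 ± 0.07) without shEya3_KD1 replicate 3, or shEya3_KD2 replicate 1 or 2 (0.18 to 0.19). Tars, for threonine, had 300, 330 and 287 CPM in shEya3_KD1, 347, 341 and 313 CPM in shEya3_KD2, and 280, 265 and 278 CPM in SCR. It rose by 0.28 ± 0.07 with shEya3_KD2 (adjusted p = 0.00439) and did not pass with shEya3_KD1 (0.15 ± 0.07, adjusted p = 0.0814), where its libraries nevertheless lay above SCR and it passed with only those groups in the fit (0.16, adjusted p = 0.0418).

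The synthetases outside the set had medians nearer to 0. Of 8 other cytosolic synthetases, 1 passed the test with shEya3_KD1 (Dars, 0.22 ± 0.06), where 50.3% of all genes were called, and 2 with shEya3_KD2 (Qars, 0.22 ± 0.06, and Vars, 0.21 ± 0.07), where 45.3% were called, all upwards, with medians of -0.01 and 0.06. Of 17 mitochondrial synthetases, 5 were higher and 5 lower in shEya3_KD1 than in SCR, and 1 was higher and 3 lower in shEya3_KD2, with medians of -0.18 and -0.10. The lowest values of that list, -0.69 and -0.50 for Lars2, were not called. Lars2 had 225 CPM in SCR replicate 2, against 74.9 and 90.1 CPM in SCR replicates 1 and 3. Wars2, the mitochondrial partner of Wars, had 41.9, 45.3 and 45.1 CPM in shEya3_KD1, 26.4, 26.2 and 28.2 CPM in shEya3_KD2, and 24.2, 23.3 and 23.0 CPM in SCR, so it was higher in shEya3_KD1 than in shEya3_KD2 while Wars was lower. Tars2 and Mars2, for threonine and methionine in mitochondria, rose by 0.51 and 0.44 with shEya3_KD1. With shEya3_KD2, Hars2, Yars2 and Mars2 had called log2 fold changes of -0.38, -0.34 and -0.27. The difference between the lists themselves was not tested.

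**Figure D4:**
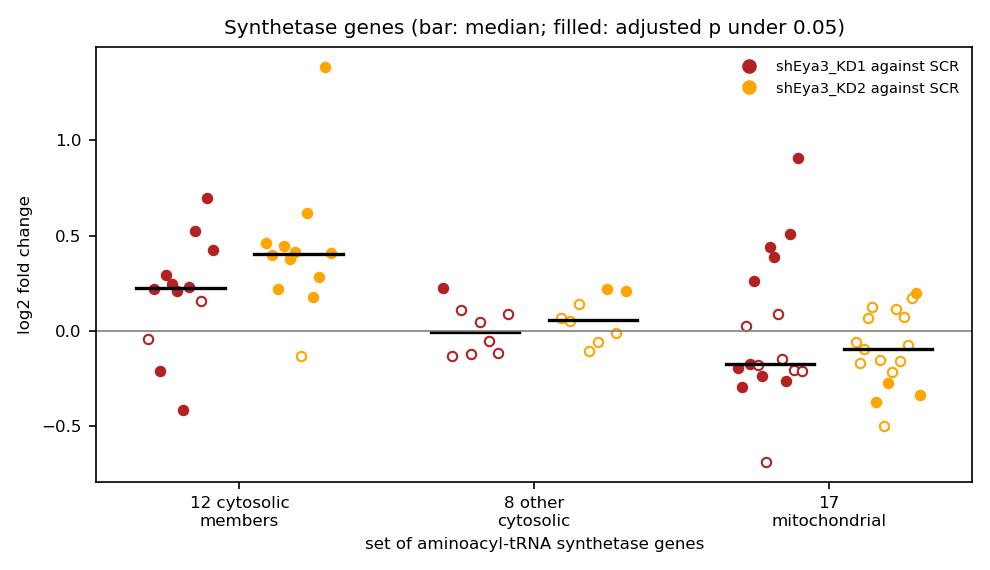
Log2 fold change against SCR (vertical axis) of single aminoacyl-tRNA synthetase genes in 3 sets, with shEya3_KD1 in red and shEya3_KD2 in orange, filled points for an adjusted p under 0.05 and a bar at the median. The medians of the 12 cytosolic genes of the Atf4 set are 0.22 and 0.40, against -0.01 and 0.06 for the 8 other cytosolic genes and -0.18 and -0.10 for the 17 mitochondrial ones. The lowest mitochondrial point with each hairpin is Lars2, which was not called and had a single high SCR library.

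The companion lists are given by the count of genes called in each direction, which stands beside the shares of all genes tested, 24.1% upwards and 26.2% downwards with shEya3_KD1 and 23.0% upwards and 22.3% downwards with shEya3_KD2. In lists of this size a few genes more or fewer than those shares were not read as a result. Of 16 tested genes of the eIF2 kinases and their pathway, 1 rose and 5 fell in shEya3_KD1 cells, with a median log2 fold change of -0.15. The counts in shEya3_KD2 cells were 4 upwards and 6 downwards, with a median of -0.05. Impact, a brake on the kinase GCN2, had 16.9, 16.0 and 19.8 CPM in shEya3_KD1, 68.0, 64.4 and 65.5 CPM in shEya3_KD2, and 52.2, 55.0 and 56.6 CPM in SCR. It fell by 1.64 ± 0.08 with shEya3_KD1 (edgeR adjusted p = 2.26e-10), while it rose by 0.27 ± 0.08 with shEya3_KD2 (adjusted p = 0.0085). Eif2s3x, a gene of the gamma subunit of eIF2, fell by 0.56 ± 0.07 with shEya3_KD1 and by 0.20 ± 0.07 with shEya3_KD2 (adjusted p = 9.02e-06 and 0.0283). Eif2b2, a subunit of the exchange factor eIF2B, fell by 0.41 ± 0.06 and 0.18 ± 0.06 with shEya3_KD1 and shEya3_KD2 (adjusted p = 6.37e-05 and 0.0308).

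Eif2ak2 (PKR), the kinase activated by double-stranded RNA and itself an interferon-induced gene, had 56.3, 45.8 and 47.3 CPM in shEya3_KD1, 130, 207 and 134 CPM in shEya3_KD2, and 60.7, 60.8 and 67.3 CPM in SCR. It rose by 1.32 ± 0.16 with shEya3_KD2 (edgeR adjusted p = 0.000107), with replicate 2 the highest, and did not pass with shEya3_KD1 (-0.34 ± 0.16). Ppp1cc, a catalytic subunit of protein phosphatase 1, fell by 0.24 ± 0.07 with shEya3_KD1 and 0.42 ± 0.07 with shEya3_KD2 (adjusted p = 0.0122 and 0.000242). Eif2s1, the gene of the eIF2 subunit that the kinases phosphorylate, fell by 0.41 ± 0.10 with shEya3_KD2 (adjusted p = 0.00611) and did not pass with shEya3_KD1 (-0.01 ± 0.10).

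Of 21 other amino acid transporters 16 were tested. In shEya3_KD1 4 of these rose and 8 fell, against 4 upwards and 7 downwards in shEya3_KD2, with medians of -0.28 and -0.19. Slc38a1 (SNAT1), a relative of Slc38a2, had 58.2, 52.8 and 51.6 CPM in shEya3_KD1, 1.70, 2.07 and 1.70 CPM in shEya3_KD2, and 4.85, 5.11 and 4.62 CPM in SCR. It rose by 3.48 ± 0.09 with shEya3_KD1 and fell by 1.44 ± 0.11 with shEya3_KD2 (edgeR adjusted p = 1.45e-13 and 1.26e-07). Slc7a11, the cystine importer, had 24.9, 32.0 and 30.1 CPM in shEya3_KD1, 162, 175 and 145 CPM in shEya3_KD2, and 65.8, 58.3 and 76.7 CPM in SCR. It fell by 1.21 ± 0.11 with shEya3_KD1 and rose by 1.26 ± 0.11 with shEya3_KD2 (adjusted p = 1.32e-06 and 1.5e-06). Slc7a7, the light chain of an exchanger of basic amino acids, fell by 1.27 ± 0.14 and 0.80 ± 0.13 with shEya3_KD1 and shEya3_KD2 (adjusted p = 1.62e-06 and 0.000171). Slc38a7 (SNAT7), a glutamine transporter, rose by 0.38 ± 0.06 and 0.89 ± 0.06 (adjusted p = 0.000165 and 5.27e-08).

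Of 17 tested folate enzymes outside the set, 3 passed upwards and 5 downwards in shEya3_KD1, and 3 upwards and 6 downwards in shEya3_KD2. Mthfd1l, which makes formate in mitochondria, rose by 0.60 ± 0.07 with shEya3_KD1 and 0.56 ± 0.07 with shEya3_KD2 (edgeR adjusted p = 3.51e-06 and 1.32e-05). Tyms, thymidylate synthase, rose by 0.62 ± 0.08 with shEya3_KD1 and fell by 0.25 ± 0.08 with shEya3_KD2 (adjusted p = 1.84e-05 and 0.0256). Mtrr, methionine synthase reductase, fell by 0.59 ± 0.07 with shEya3_KD1 and 0.30 ± 0.07 with shEya3_KD2 (adjusted p = 4e-06 and 0.00209).

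Of 17 tested further genes linked to Atf4, shEya3_KD1 libraries had 6 risen and 5 fallen (median 0.02) and shEya3_KD2 libraries 11 risen and 1 fallen (median 0.63), the counts of shEya3_KD2 beside 23.0% upwards and 22.3% downwards over all genes. Among those risen with shEya3_KD1, Fgf21, Gdf15, Soat2 and Adm2 averaged under 1 CPM in every group. Soat2 and Adm2 were also among those risen with shEya3_KD2. Stc2, a secreted glycoprotein, had 47.0, 44.7 and 42.9 CPM in shEya3_KD1, 37.8, 38.8 and 38.5 CPM in shEya3_KD2, and 19.5, 21.5 and 21.6 CPM in SCR. It rose by 1.11 ± 0.07 with shEya3_KD1 and 0.88 ± 0.07 with shEya3_KD2 (edgeR adjusted p = 3.4e-09 and 1.26e-07). Gadd45a, a growth arrest gene, fell by 1.32 ± 0.11 with shEya3_KD1 and rose by 0.63 ± 0.10 with shEya3_KD2 (adjusted p = 6.46e-08 and 0.000115).

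A list of 18 genes held chaperones of the endoplasmic reticulum and other genes of its stress response, such as Sel1l and Xbp1. Of these, 8 were higher and 3 lower in shEya3_KD1 than in SCR, and 5 higher and 4 lower in shEya3_KD2, with medians of 0.07 and 0.06. Sel1l, an adaptor of the degradation of misfolded proteins, rose by 0.62 ± 0.08 with shEya3_KD1 and 0.80 ± 0.08 with shEya3_KD2 (edgeR adjusted p = 8.5e-06 and 1.41e-06). The disulfide isomerase genes Pdia6 and Pdia4 rose by 0.55 and 0.49 with shEya3_KD1. The co-chaperone gene Dnajc3 and Xbp1, a transcription factor of the unfolded protein response, rose by 0.59 and 0.50 with shEya3_KD2. Of 11 genes of mitochondrial chaperones and proteases, Dele1 counted with them, 4 passed with shEya3_KD1, all upwards. With shEya3_KD2 5 rose and 2 fell, and the medians were 0.08 and 0.03. The matrix protease gene Lonp1 rose with both hairpins (0.36 and 0.50), as did Dele1 (0.37 and 0.34), which in human cells relays mitochondrial stress to an eIF2 kinase. The protease gene Clpp rose by 0.27 with shEya3_KD1. With shEya3_KD2 the inner membrane protease gene Oma1 had a log2 fold change of -0.62 and the chaperonin gene Hspe1 of -0.49, both called.

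The genes of the set with the promoter core had a median log2 fold change of 0.27 with shEya3_KD1 and 0.55 with shEya3_KD2 (12 genes), and those with a window but no core 0.26 and 0.31 (21 tested genes). Among the 12, 7 were called upwards and 1 downwards in shEya3_KD1, and all 12 upwards in shEya3_KD2. Among the 21, the calls in shEya3_KD1 were 11 upwards and 7 downwards, and in shEya3_KD2 17 upwards. The shares over all genes tested were 24.1% upwards and 26.2% downwards in shEya3_KD1, and 23.0% and 22.3% in shEya3_KD2. Between the hairpins the medians were close, 0.34 with the core and 0.33 without. There 7 of the 12 were higher in shEya3_KD2, and of the 21, 14 were higher and 3 lower. The difference between genes with and without the core was not tested.

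Levels of different genes can be compared only per length, as CPM per kilobase of annotated exon (GENCODE M21). In SCR the highest levels on that scale were those of Shmt2 (231), Atf4 (200), Phgdh (159), Psat1 (148) and Gars (128). The lowest of the tested genes were Ddit3 (6.38), Slc6a9 (6.31), Nupr1 (6.28), Cth (4.73) and Vldlr (2.68). Cth and Slc6a9, with the largest fold changes of the set in shEya3_KD2 over SCR, stood among the least abundant, whereas Atf5 and Phgdh, with the largest in shEya3_KD1 over SCR, ranked 20 and 3 by level in SCR. With shEya3_KD1 Phgdh reached 315 CPM per kilobase, above Atf4 at 239, and with shEya3_KD2 Phgdh stood at 169, below Atf4 at 286.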

How the data were processed

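Per the labels' protocols, the 9 mRNA libraries came from the Universal Plus mRNA-Seq kit of NuGEN. The submitters' processing notes list FastQC, MultiQC, STAR and mm10 and give no versions. How reads were assigned to genes (program, annotation, strand) is not given in the sources used here. In all, the authors deposited 1 table of raw counts for 55418 gene symbols, used unchanged, with groups taken from the sample titles.

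The tests were run with edgeR 4.0.16 (R 4.3.3): filterByExpr kept 15914 genes, libraries were scaled by TMM, and all 9 libraries entered a robust quasi-likelihood fit on group alone, with Benjamini-Hochberg adjustment over all genes tested at 0.05. CPM are counts over the scaled library size, and standard errors (SE) were derived from the F statistic. Library totals of 27758862 to 52691960 counts set the precision of low genes such as Cbs. An exact permutation test of 1 gene has a smallest p of 0.1 in groups of 3. Between replicates, chi-square per degree of freedom was 9.24 to 45.2, above sampling noise, so none of the 9 was treated as a repeat. The script was tested on simulated counts, where low genes were recovered less completely than abundant ones. The recovery first required over all genes was not reached. After this was seen, the requirement was limited to genes of at least 5 CPM.

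The 43 genes, their roles and the companion and marker lists were chosen with earlier results of these data known. All 43 are named, with every library's value for those the results turn on. Of each companion list, up to 3 genes are named by fold change in each comparison with SCR (Sqstm1 by the same order between the hairpins). Only genes called with no overlap between libraries and with a mean of at least 1 CPM in a compared group entered this order. Larger called changes of genes below that level are therefore passed over. Some genes that this order names among the folate enzymes are not reported here. The planned naming of genes most like Atf4 by correlation was left out, because the libraries fall into 3 separate groups. Other settings tried were DESeq2 1.42.0, RLE scaling, limma-voom (limma 3.58.1), a minimum fold of 1.5, no filter, a filter at 5 CPM in 3 libraries, a replicate block, a fit on the compared groups alone, and leaving out 1 library at a time. Thinning to the shallowest library was added after the data had been seen. Exon overlaps and lengths came from GENCODE M21, and promoter sequences from RefSeq (GRCm38.p6).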

Additional observations from a re-analysis of the deposited data

Results flagged for a closer look

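The 6 genes below passed the test in opposite directions with the hairpins against SCR and also passed it between the hairpins. They were picked out by these calls after their values were seen, so the values between the hairpins only describe them. On the log2 scale shEya3_KD2 stood above shEya3_KD1 by 1.23 for Chac1, 0.99 for Cebpb, 0.95 for Ddit3, 0.74 for Ppp1r15a, 0.55 for Slc38a2 and 0.43 for Eprs. An edgeR adjusted p under 0.05 in that comparison was a condition of the choice. For all 6 the shEya3_KD2 libraries lay wholly above the shEya3_KD1 libraries, which again only describes genes chosen in this way. The part of the remaining Eya3 transcript, higher in shEya3_KD2 than in shEya3_KD1, was not tested.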

How the results depend on the processing

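With a minimum fold of 1.5, 7 of the 42 genes rose and 0 fell with shEya3_KD1, where 2591 of all 15914 genes were called. With shEya3_KD2 11 rose, where 1456 of all genes were called. Between the hairpins 7 were higher and 1 lower in shEya3_KD2, where 2087 of all genes were called. The counts are smaller since that test asks for a larger change. With shEya3_KD1 the share of the set called in either direction was then close to that of all genes. With shEya3_KD2 and between the hairpins it was higher, and these differences were not tested. Under every other alternative run the counts of risen and fallen genes stayed within 1.5 times. When 1 library was left out, the median log2 fold change of the set ranged from 0.20 to 0.27 with shEya3_KD1, the lowest without shEya3_KD1 replicate 2, and from 0.33 to 0.42 between the hairpins, the highest without shEya3_KD2 replicate 3.

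Signs turned for values near 0 that were not called, and the cause was not tested. Psat1 with shEya3_KD2 gave -0.0028 with RLE size factors, -0.0028 with DESeq2 and -0.024 with the filter at 5 CPM. Its values with 1 library left out were -0.060 to 0.079. Between the hairpins Gpt2 gave -0.0018 with RLE size factors, -0.0020 with DESeq2, -0.019 with the filter at 5 CPM, -0.015 with only the groups compared and -0.036 to 0.098 with 1 library left out. Eif4ebp1 gave -0.0057 with the filter at 5 CPM, -0.0021 with only the groups compared and -0.016 to 0.076 with 1 library left out, Atf5 -0.20 to 0.012 and Yars -0.055 to 0.044 with 1 library left out.

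Same-numbered libraries did not deviate together throughout (correlations -0.108 to 0.196), so the numbers were not taken as pairs. With a replicate block 25 rose and 8 fell with shEya3_KD1, 37 rose with shEya3_KD2, where Sars missed the threshold (0.18, adjusted p = 0.0525), and between the hairpins 29 were higher and 3 lower. Sars and Eprs also missed it with shEya3_KD2 under RLE size factors, Ppp1r15a under DESeq2, these 3 and Cebpb with the filter at 5 CPM, Eprs and Ppp1r15a with only those groups in the fit (adjusted p = 0.0665 and 0.0693), and Eprs with thinned libraries (adjusted p = 0.0613). Slc1a5, Cars and Lars missed it between the hairpins with only those groups in the fit. Cbs, at 1 to 8 counts a library, did not pass the filter on low counts and was not tested.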

Other observations

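Of 17 tested further genes linked to Atf4, 6 were higher and 3 lower in shEya3_KD2 than in shEya3_KD1. Of all genes tested, 49.6% were called in that comparison. Among the 6, Gadd45a had the largest log2 fold change (1.94). Hmox1 and Sqstm1 were also among them (1.03 ± 0.07 and 1.05 ± 0.07 in shEya3_KD2 over shEya3_KD1, edgeR adjusted p = 8.38e-09 and 9.16e-09). The autophagy genes Map1lc3b and Gabarapl1 of the same list, named after their values were seen, overlapped between the hairpins (0.13 ± 0.09 and 0.06 ± 0.07, adjusted p = 0.226 and 0.528). Hmox1, which degrades haem, had 158, 157 and 143 CPM in shEya3_KD1, 329, 302 and 302 CPM in shEya3_KD2, and 179, 192 and 184 CPM in SCR. It fell by 0.28 ± 0.07 with shEya3_KD1 and rose by 0.75 ± 0.07 with shEya3_KD2 on the log2 scale (edgeR adjusted p = 0.00246 and 5.14e-07). Sqstm1, the autophagy receptor p62, had 200, 210 and 184 CPM in shEya3_KD1, 437, 401 and 395 CPM in shEya3_KD2, and 247, 240 and 248 CPM in SCR. It fell by 0.30 ± 0.07 with shEya3_KD1 and rose by 0.75 ± 0.07 with shEya3_KD2 (adjusted p = 0.00163 and 7.16e-07). Bbc3, which encodes the pro-apoptotic protein PUMA, rose by 0.95 ± 0.09 with shEya3_KD2 (adjusted p = 9.53e-07) and did not pass with shEya3_KD1 (0.22 ± 0.09). Xpot, the exporter of transfer RNA from the nucleus, had 283, 300 and 280 CPM in shEya3_KD1, 331, 309 and 309 CPM in shEya3_KD2, and 385, 347 and 371 CPM in SCR. It fell by 0.35 ± 0.07 with shEya3_KD1 and 0.22 ± 0.07 with shEya3_KD2 (adjusted p = 0.000353 and 0.0142). Adm2, a secreted peptide gene, had 32, 28 and 10 counts in shEya3_KD1, 33, 21 and 35 counts in shEya3_KD2, and 1, 0 and 0 counts in SCR, too few for a fold change to be read. Adm2 was singled out after its counts were seen.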
